A study of Mus musculus with 4 samples.

Results

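The untreated libraries of old and young mdx mice were compared for the regions of open chromatin found in fibro/adipogenic progenitors (FAPs). The members were all regions of the old control list and of the young control list, 97139 and 43335 regions, together 140474 of the 308012 regions that the 4 libraries of the study hold. Each region was put in 1 of 3 classes by an overlap of at least 1 bp with the other list, as shared, old only or young only. Both groups were C57BL/6 mdx mice. Their treatment label reads none, while the protocol describes daily intraperitoneal saline for control mice over 15 days. Each group is 1 library of FAPs sorted from hind limb muscle as Ter119-, CD45-, CD31- and α7 integrin-negative and Sca-1+ cells. The other libraries came from young and old mice given the histone deacetylase inhibitor trichostatin A (TSA) at 0.5 mg per kg per day. They are used here to rank windows, to look the regions up and to set their own values beside those of the controls. The ages in weeks, the sex of the mice and the number of animals per library are not given in the labels. The identity of the sorted cells could not be checked against marker genes, because the lists hold positions on the build mm9 and no annotation of that build was used here.

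FAPs are mesenchymal cells of the muscle interstitium. After injury they multiply for a short time and help satellite cells rebuild fibres, and in dystrophic muscle they are a source of fibroblasts and fat cells. The mdx mouse carries a mutation in the dystrophin gene, and its muscle passes through cycles of damage and repair that give way to fibrosis with age. NA-seq detects open chromatin as sites at which a restriction enzyme can cut the DNA of intact nuclei. Of the enzymes named in the protocol, HpaII does not cut where the CpG of its site is methylated, while NlaIII has no CpG in its site. The sources used here do not tell which enzyme cut which library. The assay reads a population of nuclei, so a site open in fewer cells and a site less open in each cell cannot be told apart.

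The old control list was longer than the young control list by a factor of 2.24 (95% exact binomial interval 2.22 to 2.27). It covered 168 Mb against 67.9 Mb, a factor of 2.47. With 1 library per age there is no replicate, so these differences have no error between animals and none was tested. Intervals are at 95% and exact throughout. They take each region as an independent draw and hold the error of counting alone. The lists hold no read counts, and the depth of each library is therefore unknown. A region missing from a list was not called there, and depth, age and enzyme cannot be told apart as sources of a difference in number.

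Of the young regions, 22322 (51.5%, 51.0 to 52.0%) were shared with the old list and 21013 were young only. Of the old regions, 22235 (22.9%, 22.6 to 23.2%) were shared and 74904 were old only, so that old only regions outnumbered young only regions by a factor of 3.56. Old only regions covered 124 Mb and young only regions 30.3 Mb. In sequence, 32.4 Mb was covered at both ages, which was 47.7% of the young and 19.3% of the old covered length. With the old list thinned to the length of the young one, the expected share of young regions found in it was 23.1%. That value is set almost entirely by how many old regions were kept. It therefore cannot tell how far list length accounts for the shares above, and this was not tested.

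Shared regions met almost always 1 to 1. A young region overlapped a single old region in 22104 cases and several old regions in 218. There were 21503 pairs in which each region overlapped only the other. The old region of such a pair was the wider one in 12198 pairs (56.7%, 56.1 to 57.4%), the young one in 5043 (23.5%), and 4262 pairs had equal widths. The old region was wider by a mean of 304 bp (SD 765 bp over pairs), with means of 1978 bp in old and 1673 bp in young. A difference of at least 1000 bp was found in 12.9% of pairs with the old region wider and in 2.79% with the young region wider. In 45.6% of the pairs the old region contained the young region and extended beyond it, and in 16.5% the young region contained the old one. Both ends were identical in 3347 pairs (15.6%), and the midpoints lay within 500 bp of each other in 81.5%.

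Shared regions were wider by the median than the other regions of their list at both ages, but the widths of the classes overlapped. From lower to upper quartile, young only regions spanned 1100 to 1800 bp and young shared regions 1200 to 1900 bp. Old only regions ran from 1200 to 1900 bp and old shared regions from 1600 to 2100 bp. A wide region has more sequence to overlap, so the definition of sharing favours wide regions by construction. The deposited coordinates lie on a grid of 100 bp, the narrowest regions span 1000 bp, and a single width of 1900 bp stood out in every class. Young only regions had a median width of 1400 bp, young shared regions 1700 bp, old only regions 1700 bp and old shared regions 1900 bp. Old only regions were thus as wide, by the median, as the young regions that both ages shared. Regions at the lower limit of 1000 bp made up 19.1% of young only, 10.8% of young shared, 13.1% of old only and 5.10% of old shared regions. The width of 1900 bp held 18.5%, 27.9%, 31.3% and 37.7% of these classes in the same order. Regions of 2000 bp or wider were 3.44% of the young only class and 13.8% of the young shared class. In the old library they were 11.6% of the old only class and 29.8% of the old shared class.

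**Figure D1:**
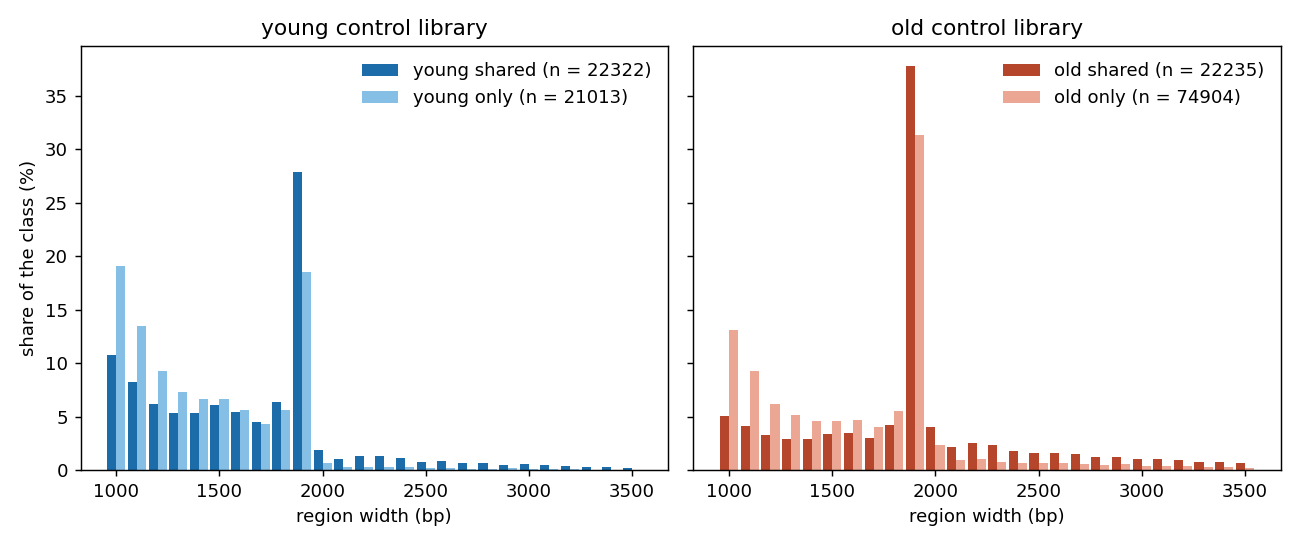
Share of each class (vertical axis, %) by region width (horizontal axis, bp, in steps of 100 bp, shown up to 3500 bp) for the young control library (left) and the old control library (right). Dark bars are regions shared between the ages and pale bars regions of 1 age; young shared, old shared and old only regions peak at 1900 bp and young only regions at 1000 bp (19.1%, with 18.5% at 1900 bp), and the pale bars exceed the dark ones at 1000 bp (19.1% against 10.8% in young, 13.1% against 5.10% in old).

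The pairs showed how a width in one library mapped onto the other. Of the 2320 pairs with a young region of 1000 bp, the old region was wider in 2086 (89.9%) and had a median width of 1900 bp. In the opposite direction, 1101 pairs had an old region of 1000 bp, and the young region of these had a median width of 1400 bp. As 1000 bp is the smallest width, the partner could only be as wide or wider, and the comparison between the directions is the informative one. Young regions of 1900 bp formed 6033 pairs. The old region was also 1900 bp wide in 2917 of them (48.4%, 47.1 to 49.6%), and both ends were identical in 2350 (39.0%, 37.7 to 40.2%).

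The share of regions found at the other age rose with width in both lists. Of young regions of 1000 bp, 37.5% (36.3 to 38.7%) were shared. At 1900 bp the share was 61.6% (60.6 to 62.5%), and among young regions of 2300 to 3000 bp it was 81.1% (79.2 to 82.9%). The corresponding shares of old regions were 10.4% (9.80 to 11.0%), 26.4% (25.9 to 26.8%) and 43.6% (42.3 to 44.8%). A wide region offers more sequence to overlap, so the midpoints alone were also looked up. The midpoint of a young region lay inside an old region in 34.8% of cases at 1000 bp, 58.4% at 1900 bp, 75.9% at 2000 to 2200 bp, 75.3% at 2300 to 3000 bp and 72.8% at 3100 bp or more. For old midpoints the values were 9.18%, 24.6%, 35.6%, 37.9% and 31.9%. The rise up to 2200 bp was thus present without the contribution of a region's own length. Wide regions and shared regions were both more frequent where regions are dense, as given below, and the part of density was not tested.

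**Figure D2:**
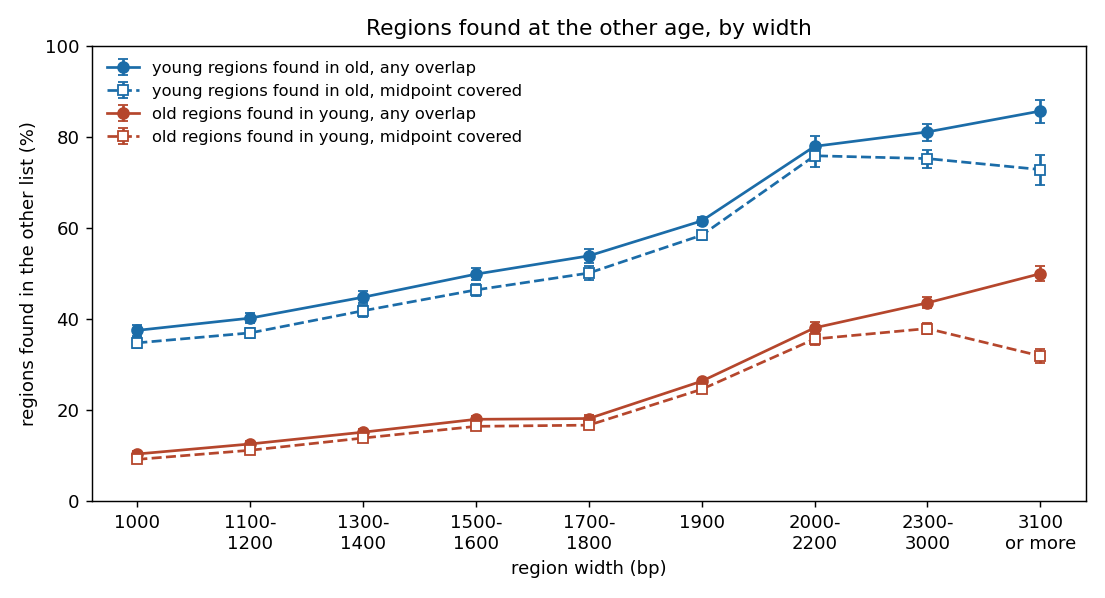
Share of regions found in the list of the other age (vertical axis, %) by width class (horizontal axis, bp), for young regions (blue) and old regions (red). Filled circles count any overlap and open squares the midpoint alone, with 95% exact binomial intervals; both rise up to 2000 to 2200 bp, and at 3100 bp or more the midpoint shares are lower than at 2300 to 3000 bp (72.8% against 75.3% for young and 31.9% against 37.9% for old regions).

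The widest regions of each class were spread over several chromosomes. The widest old only region spanned 9300 bp at chr18:9501001-9510300, and the nearest young region lay 10700 bp away. Further old only regions of 6300 to 6500 bp lay at chr4:153649301-153655600, at chr5:118641001-118647500, at chr9:43551501-43557800 and at chr12:114561201-114567500. All 5 also overlapped regions of young TSA and old TSA, so that among the 4 libraries the young control alone lacked them. The region on chromosome 12 was in the authors' list of regions higher in young TSA than in young control. The one on chromosome 4 was in their list of regions higher in old control than in old TSA.

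The widest young only regions were narrower. The widest, at chr7:87943201-87948000, spanned 4800 bp and was found in young TSA but not in old TSA. A region of 4400 bp at chr4:55360601-55365000 was found in the young control alone. Those at chr3:109056501-109060600, at chr3:151920801-151925200 and at chr8:109493701-109498000 were found in both TSA libraries. Of these, the second lay only 300 bp from an old region.

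Among the 1-to-1 pairs with the widest old regions, the ages differed greatly in width at some loci and little at others. On chromosome 5 the old region from 15125001 to 15132600 and the young region from 15125001 to 15131800 shared their start, with widths of 7600 and 6800 bp. On chromosome 7 the pair starting at 46528801 measured 7400 bp in old and 6700 bp in young. The pair on chromosome Y ended at 2859000 at both ages and measured 7700 bp in old and 7400 bp in young. On chromosome 8, by contrast, the old region from 119865301 to 119873300 spanned 8000 bp, while the young region inside it spanned 1800 bp, from 119869101 to 119870900. On chromosome 9 the old region from 108739801 to 108747000 spanned 7200 bp and the young one, from 108744901 to 108746000, 1100 bp.

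Neighbouring regions lay closer together in the old library. The median distance from the end of a region to the start of the next was 12200 bp in old and 23300 bp in young. Distances above 100 kb made up 14.3% of the young and 3.88% of the old distances. A longer list has shorter distances by construction. When the old list was thinned to the young length without regard to position, its expected median distance was 29700 bp, longer than the 23300 bp of the young list. Against this thinning, the young regions sat closer to each other than the old ones. The thinning was chosen after seeing the data and drops regions regardless of width. Whether an old list shortened by calling would be spaced alike was not tested. Regions of a class also followed each other along the chromosomes. The next young region was shared in 54.5% (53.9 to 55.2%) of cases after a shared region and in 48.3% (47.6 to 49.0%) after a young only region. In the old list these shares were 28.9% (28.3 to 29.5%) and 21.1% (20.8 to 21.4%). Over all regions, 51.5% of young and 22.9% of old regions were shared. The shared part also rose with the density of regions along the chromosomes, as given below, and the part of density here was not tested.

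Young only regions seldom lay far from old regions, whereas many old only regions lay far from any young region. The median distance from a young only region to the nearest old region was 6400 bp, and 99.6% of these regions had an old region within 100 kb. From old only regions to the nearest young region the median was 17400 bp. Of these regions, 8100 (10.8%) were more than 100 kb from any young region, against 91 young only regions (0.433%) in the other direction. A longer list has a nearer region by construction, and no count beyond 100 kb was made at equal length. Chromosome X, with 412 young control and 1835 old only regions, was included. Thinning the old list by keeping evenly spaced regions moved the median from young only regions to 9700 bp. Such thinning removes close neighbours by construction. Restricting both lists to regions at or above their median width moved the medians to 11400 and 30800 bp, in the same order.

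**Figure D3:**
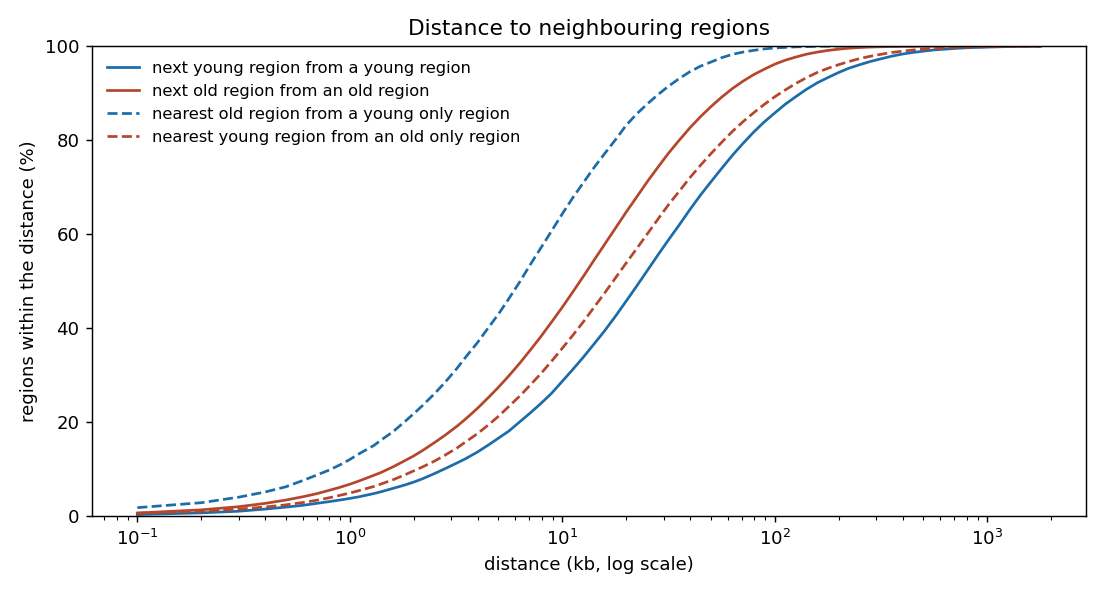
Share of regions (vertical axis, %) within a given distance (horizontal axis, kb, log scale) of the next region of the same list (solid lines) or of the nearest region of the other list (dashed lines). The curve from young only regions to old regions lies farthest left, with a median of 6400 bp, and that between young regions farthest right, with a median of 23300 bp.

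The distance to young regions went with how often old regions recurred after TSA. Old regions that overlapped a young region were found in young TSA in 78.4% and in old TSA in 75.5% of cases. The 15898 old only regions within 5 kb of a young region were found in 46.9% and 46.4%. The 8100 beyond 100 kb were found in 22.7% (21.8 to 23.6%) and 32.5% (31.4 to 33.5%), and their median width was 1600 bp, against 1800 bp for those within 5 kb. Far from young regions, old only regions were thus found in old TSA more often than in young TSA, while close to them the shares were nearly equal. A region can be found by chance more often where regions are dense, and the part of density in these shares was not tested.

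The old regions between 2 neighbouring young regions were counted to find stretches with many old control calls and none in the young control. Of the 43313 intervals between young neighbours, 908 held 10 or more old regions, and these together held 12173. Of the 97117 intervals between old neighbours, 2 held 10 young regions. These counts depend on the lengths of the lists, since the longer list has shorter intervals and fewer regions of the other list to fill them, and no count at equal length was made. The intervals with most old regions lay on chromosome X. From 73468601 to 77926100, a stretch of 4458 kb without a young control region held 58 old control regions, 35 of old TSA and 13 of young TSA. From 67730701 to 70163300 there were 44 old control regions, 35 of old TSA and 18 of young TSA. On chromosome 16 from 5482801 to 6027600, a shorter stretch of 545 kb held 41 old control regions, with 36 in old TSA and 22 in young TSA. In these 3 stretches each of the other libraries thus held regions, and the old libraries held more than young TSA.

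In the opposite direction, 10 young regions lay at chr11:86382901-86577100, in 194 kb without an old control region. Here young TSA held 6 regions and old TSA 4. On chromosome 19 from 57114701 to 57236100 there were 10 young control regions, 10 of young TSA and 2 of old TSA. On chromosome 16 from 44571401 to 44698700 there were 9 young control regions and 4 in each TSA library.

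Autosomes were divided into windows of 1 Mb, of which 2412 held a region in at least 1 of the 4 libraries. The old control held more regions than the young control in 2380 of these windows, fewer in 16 and as many in 16. A window held a median of 35 old regions (percentiles 10 and 90 at 16 and 71) and 15 young regions (3 and 36). Across windows the numbers at both ages followed each other, with Pearson's r of 0.845 and Spearman's rho of 0.866. These values are descriptions over neighbouring windows, which need not be independent. The part of gene density, mappability and enzyme sites in them was not tested. Of the control lists, the young one was the more unevenly spread. The coefficient of variation over windows was 0.727 in young and 0.562 in old. In the TSA libraries it was 0.759 in young and 0.634 in old. For the old control list thinned to the young length without regard to position, 0.589 is expected. Ranked by its own regions, each control list held 21.1% (young) and 27.9% (old) of its autosomal regions in the sparser 50% of windows. No young control region was found in 29 windows and no old control region in 5. These shares and numbers also depend on list length, and neither was computed at equal length.

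To ask where the additional old regions lay, the autosomal windows were ranked by their regions in the 2 TSA libraries, so that the lists compared did not choose the windows. The ranking was cut into 5 classes of 482 or 483 windows. In the poorest 20% of windows the libraries held 7751 old and 2122 young regions, a ratio of 3.65 (3.48 to 3.83). The ratio was 2.77 in the next class and 2.20 in the middle class. It was 2.03 (1.99 to 2.08) in the fourth class and 2.04 (2.00 to 2.07) in the densest 20%, with 35364 old and 17372 young regions. The ratio was therefore 1.79 times higher in poor than in dense windows, a difference outside the counting error, although 1 library per age allows no test. When windows were ranked by the control lists themselves the ratio ran from 4.39 to 1.94. In number, the difference was nevertheless larger in dense windows, with 17992 more old than young regions there and 5629 more in poor windows.

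**Figure D4:**
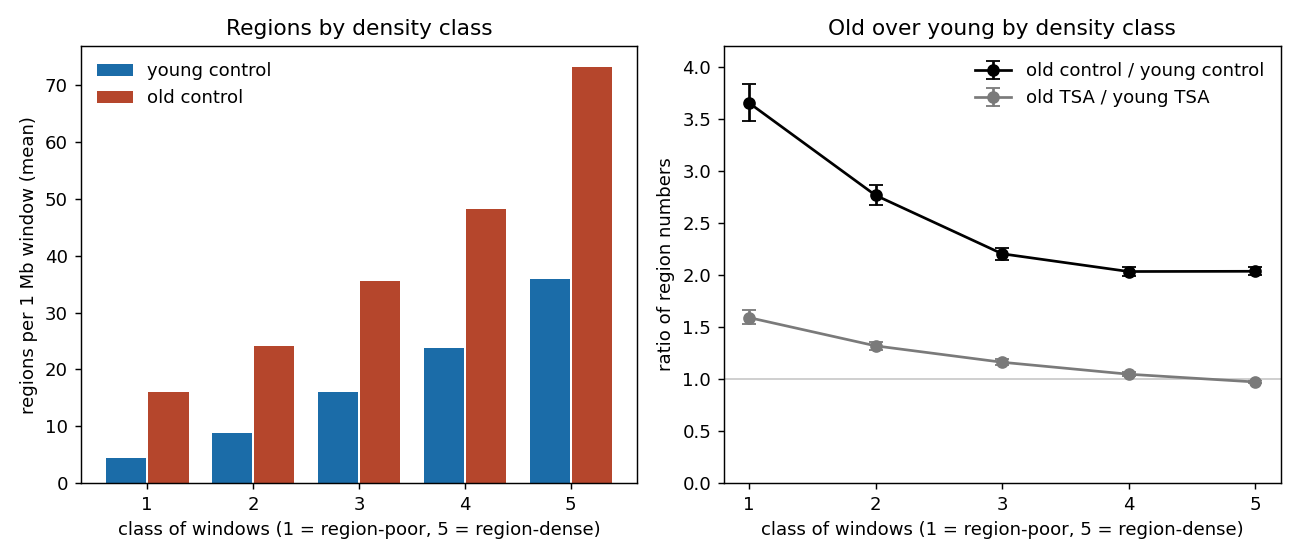
Left, mean number of regions per 1 Mb autosomal window in the young control (blue) and old control (red) library, for 5 classes of windows ranked by the TSA libraries (horizontal axis, 1 poorest, 5 densest). Right, ratio of old to young region numbers with 95% exact binomial intervals for the control libraries (black) and the TSA libraries (grey); the control ratio falls from 3.65 to 2.04 and the TSA ratio from 1.59 to 0.973.

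The TSA libraries showed a similar gradient at a lower level, from 1.59 (1.53 to 1.66) in the poorest to 0.973 (0.958 to 0.987) in the densest class. As these libraries ranked the windows, the ranking by controls is the independent one for them, and it gave 1.54 and 0.965. The control libraries are different libraries from the TSA ones, and the part of the restriction enzyme in the gradient was not tested.

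Regions also differed in kind between poor and dense windows. The median width rose from 1300 bp in the poorest to 1600 bp in the densest class in young, and from 1600 to 1900 bp in old. Regions of 2000 bp or wider rose from 2.69% to 11.3% of the young regions and from 6.94% to 21.6% of the old regions. The share with a width of exactly 1900 bp rose from 14.8% to 24.9% in young, while in old it was 32.9% in the poorest and 32.7% in the densest class. Of the young regions, 32.8% (30.8 to 34.8%) were shared in poor windows and 59.7% (59.0 to 60.4%) in dense ones. Of the old regions, 9.01% (8.38 to 9.66%) and 29.2% (28.7 to 29.7%) were shared. Overlap by coincidence rises with density, and its part was not separated here. Old only regions were found in old TSA in 29.1% of cases in poor and 50.7% in dense windows. Young only regions were found in young TSA in 12.0% and 46.5%. The TSA lists ranked these windows, so a low recurrence in poor windows is partly built in. With windows ranked by the control lists, the shares were 32.0% and 49.8% for old only regions. For young only regions they were 15.2% and 45.3%.

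Single windows were compared by the share that each took of its list. This puts the lists on a common scale but leaves the larger counting error of the shorter list. Of the 2200 autosomal windows with at least 20 regions in both lists together, 234 (10.6%) had an old share at least 2-fold above the young share and 38 (1.73%) a young share at least 2-fold above the old share. The former held a median of 4 young and 24 old regions, so their ratios rest on few young regions. With at least 60 regions per window, 2.67% passed in the old and 1.38% in the young direction, and in windows of 0.5 Mb 6.85% and 4.77% did. With regions at or above the median width the shares were 6.72% and 5.71%, and in windows of 5 Mb 2.20% and 0%. Since a window enters by the sum of both lists, windows with few young regions enter only through their old regions, and the counts in the 2 directions are given as descriptions. For wider regions the intervals of the 2 shares overlapped (5.50 to 8.11% and 4.59 to 7.02%), as they did with at least 60 regions (1.76 to 3.85% and 0.758 to 2.31%).

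The windows at the extremes are given as descriptions, since they were picked for their ratios. Chromosome 6 between 27 and 28 Mb held no young control region, 21 old control, 9 young TSA and 8 old TSA regions. Against a floor of 3 young regions its old share was at least 3.12-fold higher, with a counting interval at that floor of 0.932 to 16.4 that includes 1. Chromosome 1 between 115 and 116 Mb held 1 young and 31 old control regions, with 17 in young TSA and 20 in old TSA, a ratio of shares of 13.8 (2.30 to 564). Chromosome 17 between 94 and 95 Mb and chromosome 7 between 55 and 56 Mb each held 1 young and 24 old control regions. Chromosome 2 between 111 and 112 Mb held 1 and 23. In the 5 windows, both TSA libraries held 8 to 21 regions, so none of the windows lacked regions in young TSA.

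In the young direction, chromosome 11 between 86 and 87 Mb held 22 young and 8 old control regions, 19 in young TSA and 18 in old TSA. The young share was 6.16-fold higher (2.64 to 16.0). This window contains the stretch of 10 young regions described above. Chromosome 4 between 146 and 147 Mb held 23 young and 11 old control regions, with 10 in young TSA and 14 in old TSA, a ratio of 4.69 (2.19 to 10.6). The other windows had 16 young and 13 old regions (chromosome 18, 55 to 56 Mb), 32 and 26 (chromosome 16, 44 to 45 Mb) and 18 and 15 (chromosome 16, 77 to 78 Mb).

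By chromosome, the ratio of old to young regions ran over the 19 autosomes from 1.85 on chromosome 11 (1.77 to 1.94) to 2.38 on chromosome 14 (2.25 to 2.53), with a median of 2.24. Chromosome 19 was next to the lowest at 1.92 (1.78 to 2.06). The shared part of the young regions ran from 47.0% on chromosome 16 to 57.6% on chromosome 7, and that of the old regions from 20.7% on chromosome 14 to 26.6% on chromosome 11. Chromosome X stood outside these ranges. Its ratio was 4.83 (4.34 to 5.39), 155 of its 412 young regions (37.6%, 32.9 to 42.5%) were shared, and 156 of its 1991 old regions were (7.84%, 6.69 to 9.10%). It was poor in regions at both ages, with 2.59 young and 12.5 old regions per window, against 4.39 and 16.0 in the poorest autosomal class. In the TSA libraries the ratio on chromosome X was 2.08, where the autosomes ran from 0.987 to 1.15. Of the 1835 old only regions on chromosome X, 29.5% were found in old TSA and 16.1% in young TSA. The sex of the mice behind each library is not given, and its part in these values was not tested.

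The classes were then looked up in the TSA libraries, which took no part in defining them. Of all young control regions, 57.0% were found in young TSA and 52.5% in old TSA, and 68.0% in either. Of all old control regions, 46.8% and 49.3% were found, and 62.1% in either. Shared regions recurred most. Young shared regions were found in either TSA library in 88.3% (87.9 to 88.8%) of cases and in both in 64.8%. Young only regions were found in either in 46.3% (45.6 to 47.0%) and in both in 16.9%. For old only regions these shares were 54.3% (53.9 to 54.7%) and 24.6%, so that 34236 old only regions were found in no other library, as were 11284 young only regions.

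Regions of 1 age were found more often in the TSA library of their own age. Of young only regions, 34.7% (34.0 to 35.3%) were found in young TSA and 28.5% (27.9 to 29.1%) in old TSA. Of old only regions, 41.6% (41.2 to 41.9%) were found in old TSA and 37.4% (37.0 to 37.7%) in young TSA. The old TSA list was the longer one, with 87416 against 80122 regions, a factor of 1.09. The part of list length in these shares was not tested. Old shared regions went the other way, with 78.4% found in young TSA and 75.5% in old TSA. Recurrence also followed width. Among regions of 2000 bp or wider, 81.5% (78.4 to 84.2%) of young only and 84.7% (84.0 to 85.5%) of old only regions were found in either TSA library. Among those of 1900 bp the shares were 60.1% and 66.0%. Among those of 1000 to 1400 bp they were 38.4% (37.5 to 39.3%) and 37.1% (36.5 to 37.6%), so the higher recurrence of old only regions did not extend to narrow ones.

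**Figure D5:**
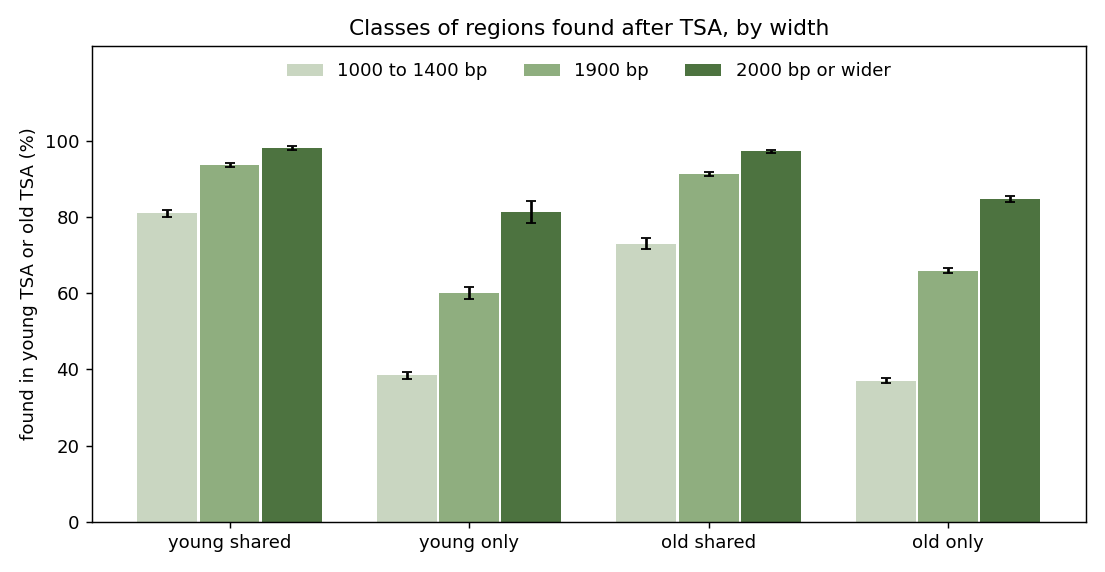
Share of the regions of each class that overlapped a region of young TSA or old TSA (vertical axis, %), with 95% exact binomial intervals, for 3 ranges of width (light to dark). Every class rises with width, and shared regions stand above regions of 1 age at each width; young only and old only regions lie at 38.4% and 37.1% in the narrowest range and at 81.5% and 84.7% in the widest.

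The authors' deposited list of regions higher in young TSA than in young control held part of the old regions. It overlapped 6.65% of all old control regions, 4128 of the old only regions (5.51%, 5.35 to 5.68%) and 2334 of the old shared regions (10.5%, 10.1 to 10.9%). Among the young regions it overlapped 5.57% of all, 2235 of the shared regions (10.0%) and 178 of the young only regions (0.847%, 0.728 to 0.980%). The list was made against the young control, which also defines the classes, so these shares are descriptions and not separate evidence.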

How the data were processed

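Accessible regions were measured by NA-seq in FAPs of mdx mice, with 1 library per group. The authors deposited for each library a list of regions and a list of regions that differed from the other treatment of that age. Each list holds chromosome, start and end only. Bowtie 0.12.7 and the build mm9 are named, per the submitters' processing notes. For the region caller, its threshold and the handling of repeated sequence the sources used here give no statement. Printed starts count from 1.

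Overlaps, widths and distances were computed with scipy 1.17.1, pandas 2.3.3 and numpy 2.4.6 under Python 3.11.15, and matplotlib 3.10.9 drew the plots. The functions gave the known answer in 8 of 8 cases on 2400 simulated regions. Overlaps, distances and covered length were checked against brute force. For merging only the absence of gaps under 1 kb was checked, and for windows only the total number of regions. Regions were assigned to windows by their midpoint. Shares under thinning are exact expectations without random draws. Every chromosome entered the overlaps, and only autosomes the windows. Named were the 5 widest regions of each class, 5 windows per direction and 3 stretches per direction. The members, lists and rules were chosen with earlier results of these data known. Genes, markers and sequences were not analysed here, since the tables at hand are of another build.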

Additional observations from a re-analysis of the deposited data

Results flagged for a closer look

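In the densest 20% of autosomal windows the old list was longer than the young one among controls (log2 ratio 1.03), whereas with TSA it was slightly shorter (log2 ratio -0.040). This result was flagged because the age contrast had opposite signs in the 2 treatments, although the value with TSA was small. In the other classes of windows the TSA ratio was above 1, from 1.59 in the poorest to 1.05 next to the densest. The whole old TSA list was longer than the young TSA list by a factor of 1.09. With 1 library for each combination of age and treatment, no test of this difference was made. With windows ranked by the control lists the ratios were 1.94 and 0.965, on the same sides of 1.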

How the results depend on the processing

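No paired analysis was possible because each group has 1 library, and for the same reason none could be left out. Of 72 values recomputed under 13 alternatives, 23 stayed within the counting interval of the reported value, 47 moved outside it and 2 changed direction. The young share found in old was 42.9% with a reciprocal overlap of 50% and 54.5% with gaps of up to 500 bp counted as shared. It was 46.8% for regions at or above the median width and 52.0% with regions closer than 1 kb merged. With the old list thinned it was 23.1%, a value set almost entirely by how many old regions were kept. The old share found in young was 19.2%, 24.8%, 21.1% and 23.6% under the first 4 of these and 23.2% on autosomes. Pairs wider in old were 53.7% with reciprocal overlap and 58.6% after merging.

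The ratio of the young to the old median distance, 1.91, was 1.80 for wider regions and 1.83 after merging. It turned to 0.644 with evenly spaced old regions, which removes close neighbours by construction, and to 0.785 with thinning regardless of position, chosen after seeing the data. Windows with an old share at least 2-fold higher were 6.72% for wider regions, 6.85% at 0.5 Mb, 2.20% at 5 Mb and 2.67% with at least 60 regions, the last also chosen after seeing the data. The ratio between poor and dense windows was 1.98 for wider regions, 1.45 at 5 Mb and 2.26 with the ranking by controls. Recurrence of young only regions was 42.8% with reciprocal overlap and 44.2% for wider regions, and that of old only regions was 50.4%, 53.4% and, on autosomes, 54.8%. Depth is unknown, so regions near the calling limit could not be weighted.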
